A study of Rattus norvegicus with 6 samples.

Results

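Collagens, laminins and the proteases that cut them were followed through the young kidneys of Han:SPRD rats, a strain in which the Cy mutation causes polycystic kidney disease. The set holds every probe whose gene name on the array is a numbered collagen chain (Col), laminin chain (Lama, Lamb or Lamc), matrix metalloproteinase (Mmp), Adamts protease or Adamts-like protein (Adamtsl). That rule, which uses names and no measured value, gave 118 of 41012 probes, for 82 genes. They were grouped as 32 probes for basement membrane chains (17 genes), 20 for fibrillar collagens (10 genes), 21 for other collagens (14 genes) and 45 for proteases (41 genes). The group called proteases also holds the Adamts-like proteins, which lack the protease part. A probe was used when its spot was well above background in either dye on at least 2 arrays, which 110 of the 118 probes (77 genes) met. Each gene is represented by its brightest such probe.

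Every tubule and glomerulus rests on a basement membrane, a sheet in which a laminin network is joined to a network of type IV collagen. Fibrillar collagens are spun by stromal cells into the cables of the space between tubules, and the other collagens decorate fibrils, bead into microfilaments or span membranes. Matrix metalloproteinases and Adamts proteases are zinc enzymes that cut these proteins, and in cystic kidneys thickened tubule basement membranes and interstitial fibrosis are well known.

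Kidney RNA was pooled by genotype and age, and 6 arrays with 2 colours were made. In Cy5 they carried Cy/Cy (homozygous), Cy/+ (heterozygous) or +/+ (wild-type) pools of 3-day-old or 7-day-old Han:SPRD rats, and in Cy3 a +/+ pool of the same age. No treatment was given, the mutation is inherited in all cells, and neither the number of rats in a pool nor separate pools are stated, so the 2 ages were the only repeats of a genotype (n = 2 arrays each). A p-value here covers the spread of such arrays and not that of animals. All 3 arrays of an age lay on 1 slide, each genotype at its own position, and dyes were not swapped, so age and slide, and genotype, dye and position, cannot be told apart. Share of spots well above background, per array, was 66.8% to 74.8% in Cy5 and 65.0% to 70.0% in Cy3, and 0 spots of these genes were saturated.

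The arrays labelled +/+ went against their label. Their Cy5 pool should match their Cy3 reference, but the SD of the log2 ratio over probes was at least 0.939 on them, against 0.156 to 0.317 on the 4 mutant arrays. On them the 9 kidney epithelium markers had median log2 ratios of -4.45 and -3.77, and skeletal muscle markers 4.21 and 3.92. Each mutant pool was therefore set against the Cy3 reference of its own array, and the arrays labelled +/+ are described last. On all mutant arrays 9 of 9 kidney epithelium markers and 6 of 6 podocyte markers were well above background. The 3-day Cy/+ array also stood apart. Its 5 exocrine pancreas markers summed to a normalised intensity of 63535 in Cy/+ and 5225 in the reference, and its 4 adipose markers to 9055 in Cy/+ and 2240 in the reference. At 7 days the same sums were 2039 in Cy/+ and 1899 in the reference for pancreas, and 1509 and 1546 for adipose. Counts of calls in Cy/+ are given with and without that array, and the part of these transcripts in them was not tested.

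The probes below are those of the 8 genes whose ratio passed the threshold in Cy/+, with the second Col18a1 probe for comparison. They are shown because the values of a probe derive from the signal bound by its own 60 bases and by no other part of the transcript. All are printed 5′ to 3′ with rn3 positions. The capitals in the Col18a1 pair mark the 37 bases the probes share. They are, in order, chr9:82050469-82050528 (minus strand), chr7:91975784-91975843 (plus), chr20:11981644-11981703 (plus), chr20:11981621-11981680 (plus), chr11:25503663-25503722 (minus), chr1:18870148-18870207 (plus), chr7:109543632-109543691 (minus), chr3:155898499-155898558 (plus) and chr5:80318237-80319787 (plus). The last stretch covers 1551 bases for 60 bases of probe, so that probe is not continuous in the genome. Exon or UTR positions were not analysed here.
Col4a4: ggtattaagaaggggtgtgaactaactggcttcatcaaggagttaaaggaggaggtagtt
Col14a1: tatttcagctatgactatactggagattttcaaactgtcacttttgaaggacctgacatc
Col18a1, brighter probe: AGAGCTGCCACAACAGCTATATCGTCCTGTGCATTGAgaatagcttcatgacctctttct
Col18a1, dimmer probe: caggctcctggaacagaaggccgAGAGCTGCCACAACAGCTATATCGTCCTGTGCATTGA
Adamts5: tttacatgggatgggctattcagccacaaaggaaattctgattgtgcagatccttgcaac
Lama2: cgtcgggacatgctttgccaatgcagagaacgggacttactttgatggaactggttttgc
Col22a1: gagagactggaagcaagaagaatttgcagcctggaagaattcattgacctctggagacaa
Mmp9: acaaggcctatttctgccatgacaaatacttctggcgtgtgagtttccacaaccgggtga
Col27a1: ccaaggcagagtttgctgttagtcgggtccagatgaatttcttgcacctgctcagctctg

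The GC content of the 118 probes was 16.7% to 73.3%, with a median of 45%, against a median of 43.3% over all probes of the array. Glycine recurs at a fixed step along a collagen triple helix, and a frame with no stop codon and at least 5 glycine codons (GGN) at 9-base steps was found in 3 of the 52 collagen probes, 0 of the 66 laminin and protease probes, and 0.0219% of all probes. Between different genes the most alike pair was Col15a1 and Col18a1, which match at 38 bases without gaps.

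In Cy/+ kidneys, 8 of the 77 genes differed from the +/+ reference. The higher ones were Col4a4, a type IV chain of the glomerular basement membrane, and Col14a1, a collagen on the surface of fibrils. Lower were Lama2, a laminin alpha chain, Col18a1, the basement membrane collagen from which endostatin is cut, the fibrillar Col27a1, Col22a1, a collagen of tissue junctions, the gelatinase Mmp9, and the aggrecanase Adamts5. Of all probes tested, 4.59% were called higher and 3.27% lower, and of the 110 probes in this set 2 (1.82%) and 6 (5.45%), so the set as a whole stood near that background.

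Among the basement membrane chains, the Col4a4 probe read a normalised intensity of 1665 in Cy/+ and 1233 in the reference of the same array at 3 days, and 1386 in Cy/+ and 973 in the reference at 7 days. Its log2 ratio was 0.43 and 0.51 on the Cy/+ arrays of 3 and 7 days, the repeats listed for every gene that follows unless ages are named, and averaged 0.47 ± 0.07 (SE, n = 2 arrays, limma adjusted p = 0.0235). Cy/Cy lay on the same side at 0.30 and 0.39, which did not pass (mean 0.34 ± 0.07, adjusted p = 0.418). Lama2 was at -0.49 and -0.45 in Cy/+, below every Cy/Cy value (-0.14 and -0.31), with a mean of -0.47 ± 0.08 (adjusted p = 0.0255). The other 3 Lama2 probes averaged -0.41 to -0.22 in Cy/+ and did not pass. Col18a1 was at -0.47 and -0.27 in Cy/+ and -0.29 and -0.24 in Cy/Cy, and its Cy/+ mean of -0.37 ± 0.08 passed (adjusted p = 0.0445). Its second, overlapping probe read -0.36 ± 0.08 and did not pass (adjusted p = 0.0502), although the pair shares most of its bases.

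The remaining chains of the kidney's own basement membrane that were measured did not pass in either mutant. Col4a3, Col4a6, Lama3 and Lama4 had no probe under these names, so nothing can be said of them. Col4a1, one of the chains of every basement membrane, lay at 0.04 and 0.05 in Cy/+ and 0.11 and 0.01 in Cy/Cy. The second Col4a1 probe averaged -0.19 in Cy/+ and -0.13 in Cy/Cy. Col4a2, the partner chain of Col4a1, lay lower, at -0.58 and -0.15 in Cy/+ and -0.51 and -0.21 in Cy/Cy. Col4a5, which joins Col4a4 in the glomerulus, was at 0.15 and 0.22 in Cy/+ and 0.03 and 0.11 in Cy/Cy. Lamb2 and Lama5, the beta and alpha chains of the mature glomerular laminin, averaged -0.34 ± 0.08 and -0.30 ± 0.09 in Cy/+ and -0.18 ± 0.08 and -0.31 ± 0.09 in Cy/Cy. Over its 3 probes Lama5 ran from -0.30 to 0.01 in Cy/+ and from -0.31 to -0.11 in Cy/Cy. Lama1, an alpha chain of early tubule basement membrane, varied between the Cy/Cy arrays (0.20 and -0.35) and was low on both Cy/+ arrays (-0.35 and -0.42). Lamb1 and Lamc1, the beta and gamma chains of the same laminin, averaged -0.12 ± 0.07 and -0.08 ± 0.15 in Cy/+ and -0.03 ± 0.07 and -0.13 ± 0.15 in Cy/Cy. Lamb3, a chain of an epithelial anchoring laminin, averaged 0.55 ± 0.13 in Cy/+ and 0.14 ± 0.13 in Cy/Cy. It had its highest value on the 3-day Cy/+ array (0.84) and lay between 0.06 and 0.27 on the other mutant arrays. Over its 4 probes the Lamb3 mean ran from 0.10 to 0.55 in Cy/+ and from 0.03 to 0.14 in Cy/Cy.

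Fibrillar collagens gave 1 call. Col27a1, found mainly in cartilage, stood at -0.69 and -0.46 in Cy/+ and -0.05 and -0.18 in Cy/Cy, with no overlap between the genotypes, and its Cy/+ mean was -0.57 ± 0.09 (adjusted p = 0.0216). The ratios of the main stromal fibril chains separated by age on these 4 arrays. Col1a1 was at -0.14 in Cy/+ and -0.29 in Cy/Cy at 7 days, against 0.65 and 0.49 at 3 days. Col1a2 was at -0.04 in Cy/+ and 0.02 in Cy/Cy at 7 days, against 0.70 and 0.63 at 3 days, and Col3a1 at 0.05 and -0.03 at 7 days, against 0.75 and 0.20 at 3 days. In each gene both 7-day values lay below both 3-day values, but the age difference of the mutant ratio did not pass for any of the 77 genes. Over all probes 0.0453% passed that test, and 19 of the 110 probes had an unadjusted p under 0.05 (3009 of all probes). Col5a1 and Col5a2, which set fibril width, stayed between -0.21 and 0.04 on all 4 mutant arrays.

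The Col1a1 and Col1a2 ratios depend on the probe. The Col1a1 probe with the high 3-day ratios has the highest position (chr10:83652547-83652606, GC 35%). The other 2 Col1a1 probes (chr10:83652326-83652385 and chr10:83652273-83652332, both GC 55%) read 0.14 to 0.15 on the 3-day Cy/+ array and 0.06 on the 3-day Cy/Cy array. For Col1a2 the brighter probe (chr4:29466649-29466708, GC 35%) gave the values above. The dimmer one (chr4:29463744-29463803, GC 41.7%) gave -0.05 and -0.21 in Cy/+ and 0.12 and -0.31 in Cy/Cy. The high 3-day ratios are therefore those of 1 probe in each gene, but lower ratios at 7 days were seen with every probe. At 7 days the probe at chr10:83652326-83652385 had log2 levels of 14.13 in Cy/+ (reference 14.37) and 13.98 in Cy/Cy (reference 14.31). The probe at chr10:83652273-83652332 had 13.33 in Cy/+ (reference 13.48) and 13.18 in Cy/Cy (reference 13.45).

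Among the other collagens, Col14a1 was at 0.61 and 0.38 in Cy/+ and 0.20 and 0.09 in Cy/Cy, and the Cy/+ mean of 0.50 ± 0.09 passed (adjusted p = 0.0286). Its second probe averaged 0.18 ± 0.08 in Cy/+ and did not pass. Col22a1 was at -0.61 and -0.41 in Cy/+ and -0.14 and -0.26 in Cy/Cy, with a Cy/+ mean of -0.51 ± 0.08 (adjusted p = 0.0253). Col6a1, Col6a2 and Col6a3, the chains of the beaded filaments around cells, averaged -0.20 ± 0.07, -0.36 ± 0.10 and -0.12 ± 0.09 in Cy/+, and -0.15 ± 0.07, -0.32 ± 0.10 and -0.04 ± 0.09 in Cy/Cy. None of these 3 passed. Col8a1, a short-chain collagen of vessel walls and matrix sheets, had the highest Cy/+ mean of the set (0.95 ± 0.29, adjusted p = 0.0879), with 0.24 at 7 days against 1.65 at 3 days.

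The protease calls were both lower. Mmp9 read 298 in Cy/+ and 467 in the reference of the same array at 3 days, and 386 in Cy/+ and 535 in the reference at 7 days. Its log2 ratio was -0.65 and -0.47 in Cy/+ and -0.23 and -0.10 in Cy/Cy, and the Cy/+ mean was -0.56 ± 0.08 (adjusted p = 0.0206). The probe is spotted 10 times on the array, so its spread within an array is known. Over 10 spots the lowest and highest ratios were -0.76 and -0.52 on the 3-day Cy/+ array and -0.53 and -0.41 on the 7-day one, and for Cy/Cy, -0.30 and -0.19 (8 usable spots) and -0.19 and -0.04. The spots of the Cy/+ arrays lay wholly below those of the Cy/Cy arrays. Mmp2, the other gelatinase, was also spotted 10 times and lay at -0.33 and -0.21 in Cy/+ and -0.10 and -0.17 in Cy/Cy (Cy/+ mean -0.27 ± 0.08, adjusted p = 0.0726). For Mmp2 the 7-day arrays of the genotypes overlapped, with lowest and highest spots of -0.26 and -0.17 in Cy/+ and -0.20 and -0.14 in Cy/Cy. The plot of the repeated spots shows both genes, with an SD between spots of 0.02 to 0.08.

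**Figure D1:**
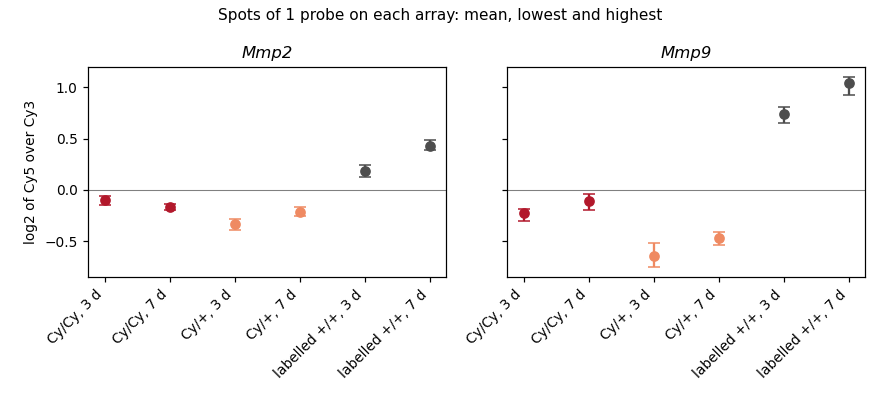
Log2 of Cy5 over Cy3 for the repeated spots of the Mmp2 probe and the Mmp9 probe on each array, as mean with lowest and highest spot (bars). The Mmp9 spots of the Cy/+ arrays sit lowest, between -0.76 and -0.41.

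Adamts5 was at -0.56 and -0.28 in Cy/+ and -0.19 and -0.21 in Cy/Cy, with a Cy/+ mean of -0.42 ± 0.09 (adjusted p = 0.0411). Adamts1, its neighbour 69.5 kb away on rn3 chromosome 11 (outer ends of the probes), was at -0.36 and -0.22 in Cy/+ and -0.42 and -0.10 in Cy/Cy and did not pass. Mmp14, the membrane-bound enzyme that activates Mmp2, averaged -0.25 ± 0.08 in Cy/+ and 0.01 ± 0.08 in Cy/Cy, and the aggrecanase Adamts4 0.05 ± 0.07 in Cy/+ and 0.09 ± 0.07 in Cy/Cy. Matrilysin (Mmp7) and stromelysin (Mmp3) stood high on the 3-day Cy/+ array, at 0.61 and 0.68, and lay between -0.26 and 0.20 on the other mutant arrays. Mmp16, a membrane-bound enzyme, was at 0.75 and 0.22 in Cy/+ and 0.41 and 0.16 in Cy/Cy. The last 3 genes did not pass.

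**Figure D2:**
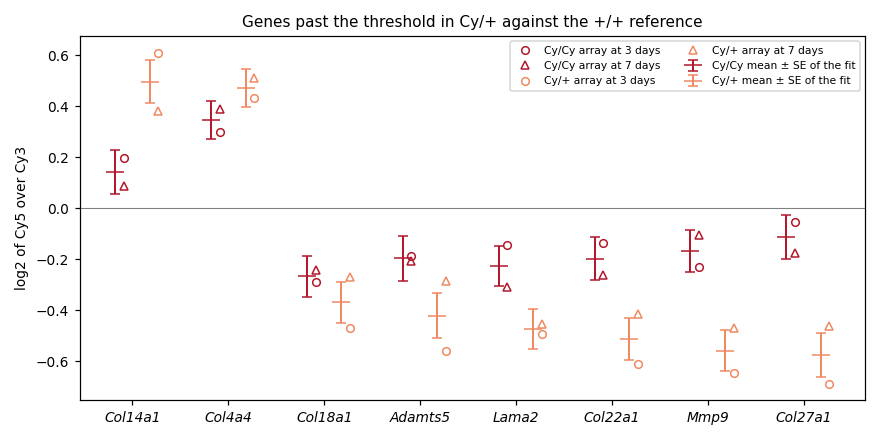
Log2 of Cy5 over Cy3 for the 8 genes past the threshold in Cy/+, with Cy/Cy (dark) left of Cy/+ (light); open circles are 3-day and open triangles 7-day arrays, and bars are the mean ± SE of the fit. In Col4a4 and Col18a1 the genotypes lie close together, while in Col27a1, Mmp9 and Col22a1 the Cy/+ values lie lower than those of Cy/Cy.

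These 8 calls rest on few arrays and on the dye correction. Without the 3-day Cy/+ array no gene of the set passed (797 probes did overall), without the 7-day one 22 probes of the set did (3215 overall), and without either Cy/Cy array 5 did (1000 overall). Where a Cy/+ array is left out, the other is assumed to vary like the Cy/Cy arrays, which alone give the spread. Where a Cy/Cy array is left out, the Cy/+ arrays alone give it, so leaving out either gives the same values. With the scanner software's own ratios, which correct the dyes in another way, none passed, and under median centring in place of loess the ratio of Col18a1 turned to 0.36 and that of Adamts5 to 0.0040.

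Other transcripts moved in Cy/+ too, beside these calls. Erythroid markers were lower, 3 of 3 called, with sums of 11034 in Cy/+ and 24916 in the reference at 3 days, and 8766 in Cy/+ and 16330 in the reference at 7 days. Kidney epithelium markers had 1 of 9 higher (Lrp2) and 3 lower (Slc12a1, Slc12a3 and Nphs1), with sums of 239161 in Cy/+ and 295245 in the reference at 3 days, and 255282 and 260171 at 7 days. Podocyte markers had 2 of 6 lower, Nphs1 and Ptpro, and summed to 42628 in Cy/+ and 56702 in the reference at 3 days, and 39501 and 47429 at 7 days. Of the 6 interstitial and mural markers 1 was lower, the fibroblast receptor Pdgfra, and 0 of 7 endothelial and 0 of 8 macrophage markers passed. Without the 3-day Cy/+ array 2 of 3 erythroid markers were lower, and 1 of 9 kidney epithelium markers (Aqp2, which did not pass with that array), while 0 of 6 podocyte and 0 of 6 interstitial markers passed. Their part in the matrix calls was not tested, and in pooled tissue fewer cells of a type and less RNA per cell cannot be told apart.

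Of the rest of the matrix pathway, from lists of genes outside the set, the enzymes that process collagen had 2 of 17 called higher and 1 lower in Cy/+. Lox, which cross-links collagen, had log2 ratios of 0.76 and 0.74 in Cy/+ and -0.14 and 0.14 in Cy/Cy (Cy/+ mean 0.75 ± 0.09, adjusted p = 0.0123). P4ha1, a prolyl hydroxylase of collagen, averaged 0.43 ± 0.08 in Cy/+ (adjusted p = 0.0305), and Bmp1, which trims procollagen, -0.43 ± 0.09 (adjusted p = 0.0413). Other matrix proteins had 2 of 18 higher, osteopontin (Spp1, 1.27 ± 0.13) and biglycan (Bgn, 0.52 ± 0.11), and 2 lower, Tgfbi (-0.64 ± 0.08) and Fbln1 (-0.51 ± 0.08). TGF-beta genes had 1 of 11 higher (Smad2) and 2 lower (Ltbp3 and Smad7). None of 11 basement membrane partners, 8 protease inhibitors such as Timp1 (0.27 ± 0.09, adjusted p = 0.110) or 15 receptors passed. Without the 3-day Cy/+ array, an alternative added after seeing the data, 3 of these calls held, Lox (0.74 ± 0.13, adjusted p = 0.0260), Spp1 (0.99 ± 0.11, adjusted p = 0.00590) and Tgfbi (-0.53 ± 0.11, adjusted p = 0.0467). The medians of these 6 lists in Cy/+ ran from -0.05 to 0.21, against 0.00 over all probes.

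In Cy/Cy kidneys no member passed against the reference. Nor did any probe on the array (0%), while 10 of the 110 probes had an unadjusted p under 0.05 (2676 of all probes), and limma was the only tool run. Its highest means were those of Col4a4 (0.34 ± 0.07), Adamts19, an orphan protease (0.34 ± 0.08), Col1a2 (0.32 ± 0.20) and Mmp16 (0.28 ± 0.13), followed by Col5a3 and Col8a1 (0.20 ± 0.27 and 0.19 ± 0.29). The second probes of Adamts19, Col1a2 and Mmp16 averaged 0.02, -0.09 and 0.05 in Cy/Cy. At the low end stood Col4a2 (-0.36 ± 0.13), Col6a2 (-0.32 ± 0.10), Lama5 (-0.31 ± 0.09), Col18a1 (-0.27 ± 0.08), Adamts1 (-0.26 ± 0.10) and Lama2 (-0.23 ± 0.08). The smallest adjusted p among the 77 genes was 0.418.

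Set directly against Cy/+, Cy/Cy differed in no member and in no probe of the array (0%), with 7 of 110 probes at an unadjusted p under 0.05 (1890 of all probes). The largest estimates on the higher side were Col27a1 (0.46 ± 0.12), Mmp9 (0.39 ± 0.12), Adamts19 (0.34 ± 0.12), Col22a1 (0.31 ± 0.12), Lama1 (0.31 ± 0.18) and Col2a1, the main cartilage fibril chain (0.30 ± 0.17). The second Adamts19 probe averaged 0.02 in Cy/Cy and -0.11 in Cy/+. For Col2a1 the second probe went the other way, at -0.20 in Cy/Cy and -0.12 in Cy/+. On the lower side were Col8a1 (-0.76 ± 0.40), Lamb3 (-0.42 ± 0.19), Col14a1 (-0.35 ± 0.12) and Col3a1 (-0.31 ± 0.23). Mmp7 and Mmp3 also ranked there, but neither was well above background on a Cy/Cy array and each was on 1 Cy/+ array. At 3 days Mmp7 read 131 in Cy/+ and 86 in Cy/Cy, and Mmp3 127 and 80. At 7 days Mmp7 read 90 in Cy/+ and 86 in Cy/Cy, and Mmp3 73 and 71, so no fold can be given. Neither passed (limma adjusted p = 0.815 for Mmp7 and 0.816 for Mmp3). For the genes called in Cy/+ the difference between the genotypes was not shown. Without the 3-day Cy/+ array 0 probes of the set passed (1 overall), and without the 7-day one 2 did (211 overall), both lower in Cy/Cy, with the spread again taken from the Cy/Cy arrays alone.

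**Figure D3:**
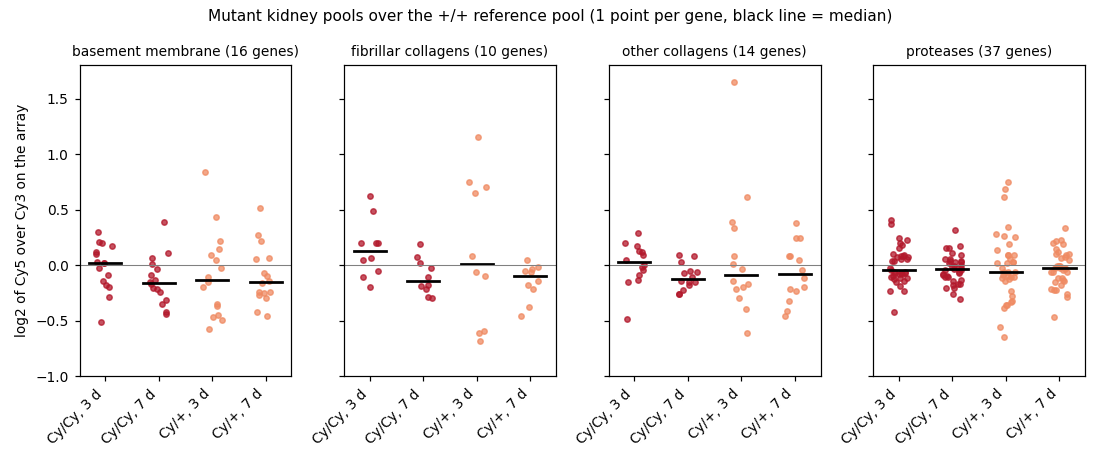
Log2 of Cy5 (mutant pool) over Cy3 (+/+ reference) for the 77 genes, by family, on the 4 mutant arrays; each point is a gene and the black line the median. Most genes lie close to 0, and the widest spread is on the 3-day Cy/+ array, with Col8a1 at 1.65.

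As families, the genes stayed near their reference. Median log2 ratios in Cy/+ were -0.11 for basement membrane chains, -0.06 for fibrillar collagens, -0.09 for other collagens and -0.02 for proteases, and in Cy/Cy -0.08, -0.03, -0.05 and -0.01, against 0.00 and 0.01 over all probes. These medians include genes not well above background in Cy5 on any mutant array, such as Col10a1 and the proteases Mmp13, Mmp10, Mmp27, Mmp20, Mmp8 and Adamts13. Median centring moved the median of all probes to 0.19 in Cy/+ and 0.17 in Cy/Cy, and turned basement membrane chains to 0.35 and 0.31 and fibrillar collagens to 0.57 and 0.41, so no direction can be given for these families. Values below 0 on all 4 mutant arrays were seen for 26 of the 77 genes and above 0 for 13, where 17.5% and 21% of all probes were. Under median centring the counts were 19 and 36, where 20.8% and 50.1% of all probes were.

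Single arrays show where the spread sits. On the 3-day Cy/+ array 11 of 110 probes were at least 1.5-fold higher than the reference (3.20% of all probes) and 5 were at least 1.5-fold lower (1.83%). The 11 came from 10 genes, Col8a1 (1.65), Col5a3 (1.15), Lamb3 (0.84), Col3a1 (0.75), Mmp16 (0.75), Col1a2 (0.70), Mmp3 (0.68), Col1a1 (0.65), Col14a1 (0.61) and Mmp7 (0.61). The 5 were Col27a1, Mmp9, Col22a1, Col2a1 and Col11a2, at -0.69 to -0.59. Col11a2, a minor cartilage fibril chain, is outside the rule for named genes and was named after its value was seen. The 3-day Cy/Cy array had 1 probe higher, Col1a2 at 0.63 (0.414% of all), and 0 lower (0.278%). By 7 days none reached that size on the Cy/+ array (1.33% higher and 1.29% lower over all probes) or the Cy/Cy array (0.317% and 0.133%). The 3-day Cy/+ array is the one with the pancreas and adipose transcripts given above.

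Between the ages more matrix genes were lower than higher at 7 days. Channel intensities of the Cy/Cy, Cy/+ and +/+ reference pools (the reference averaged over the mutant arrays of an age) were compared at 7 against 3 days, and by their brightest probe 13 of the 77 genes were lower and 4 higher. Counted as probes, 18 of 110 (16.4%) were lower where 4.28% of all probes were, and 4 (3.64%) were higher where 5.42% of all were. In 31 of the 110 probes all 3 pools at 7 days lay below all 3 at 3 days (13.7% of all probes), and in 10 above them (16.2%). Median changes were -0.26 for basement membrane chains, -0.30 for fibrillar collagens, -0.11 for other collagens and -0.06 for proteases, against 0.01 over all probes.

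**Figure D4:**
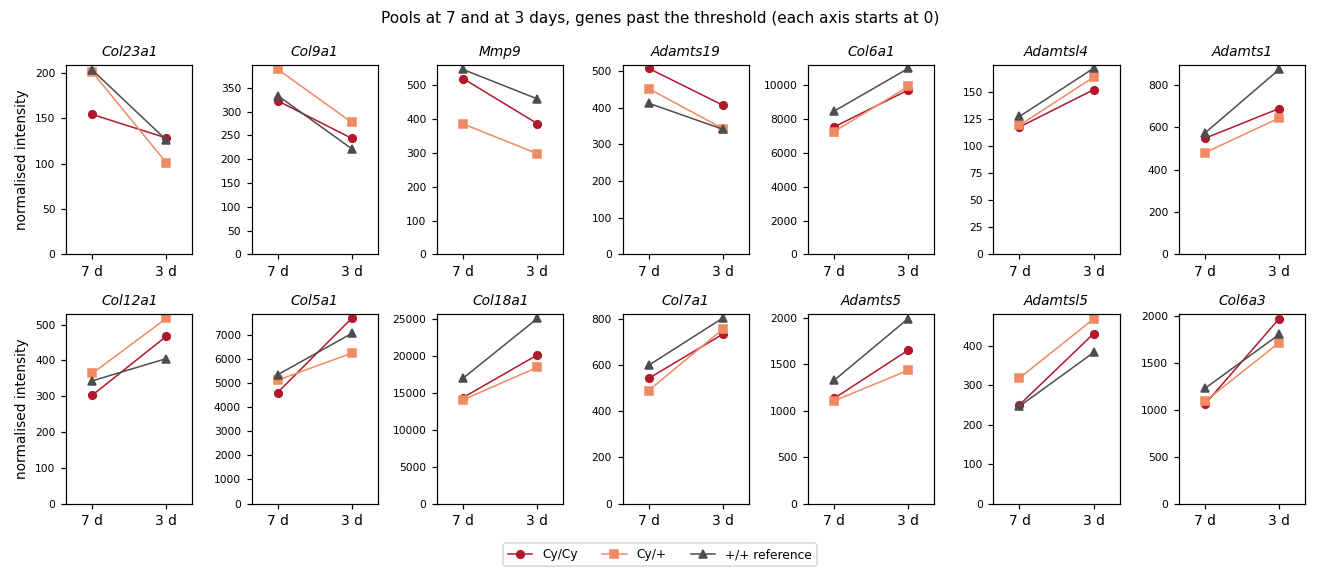
Normalised intensity (linear, each axis from 0) of the Cy/Cy, Cy/+ and +/+ reference pools at 7 days (left) and 3 days (right), for the 14 genes named by the rule for the comparison of ages. The first 4 genes are higher at 7 days and the other 10 lower, in every pool.

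Of the genes that passed, Col6a3 had the largest fall, with 1060 in Cy/Cy, 1090 in Cy/+ and 1230 in the reference at 7 days, against 1974, 1718 and 1806 at 3 days. No 7-day value reached a 3-day one, and the log2 difference was -0.70 ± 0.09 (SE, 3 pools per age, adjusted p = 0.0202). Col6a1, which shares the filament with Col6a3, averaged 7748 ± 634 at 7 days and 10211 ± 683 at 3 days (SD, n = 3 pools), a change of -0.40 ± 0.07 (adjusted p = 0.0279). Col6a2 did not follow, at 0.23 ± 0.09 (adjusted p = 0.142), although its probe lies 125.9 kb from that of Col6a1 on chromosome 20. The fibril chain Col5a1 (-0.48 ± 0.10, adjusted p = 0.0433) and the fibril-associated Col12a1 (-0.46 ± 0.09, adjusted p = 0.0389) were lower as well. Col1a1, Col1a2 and Col3a1 did not pass (-0.15 ± 0.17, 0.10 ± 0.14 and -0.38 ± 0.13).

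Basement membrane chains that fell were Col18a1, with 14345 in Cy/Cy, 14041 in Cy/+ and 16955 in the reference at 7 days, against 20107, 18426 and 25041 at 3 days (-0.48 ± 0.07, adjusted p = 0.0243), and Col7a1, the anchoring fibril collagen (-0.50 ± 0.07, adjusted p = 0.0253). Both of these had all 7-day pools below all 3-day pools. Lamb2 (-0.40 ± 0.08, adjusted p = 0.0377) and Col4a4 (-0.30 ± 0.07, adjusted p = 0.0449) were lower by less, and the pools of Col4a4 overlapped between the ages. Col15a1, a relative of Col18a1 that the naming rule leaves out and that was named after its value was seen, changed by -0.33 ± 0.07 (adjusted p = 0.0418). The network chains Col4a1 and Col4a2 did not pass (-0.13 ± 0.07 and 0.21 ± 0.10), nor did Lama1, Lama5, Lamb1 or Lamc1 (-0.26 ± 0.12, -0.40 ± 0.11, -0.11 ± 0.07 and 0.27 ± 0.11). The second Col4a1 probe went the other way, at 0.22, with all 7-day pools above all 3-day pools. Over its probes Lama5 ran from -0.42 to 0.11, and the second Lamc1 probe gave -0.05.

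Among proteases, the neighbours Adamts1 and Adamts5 were both lower at 7 days. Adamts5 read 1132 in Cy/Cy, 1107 in Cy/+ and 1327 in the reference at 7 days, against 1654, 1436 and 1994 at 3 days (-0.50 ± 0.07, adjusted p = 0.0244). For Adamts1 the values were 547, 479 and 572 at 7 days, against 688, 643 and 872 at 3 days (-0.45 ± 0.08, adjusted p = 0.0307). Their Adamts-like relatives Adamtsl5 (-0.66 ± 0.07, adjusted p = 0.0189) and Adamtsl4 (-0.42 ± 0.07, adjusted p = 0.0263), which lack the protease part, fell too. Mmp9 was higher, with 520 in Cy/Cy, 386 in Cy/+ and 547 in the reference at 7 days, against 387, 298 and 460 at 3 days (0.35 ± 0.07, adjusted p = 0.0395). Mmp9 was higher at 7 days in each pool, and Cy/+ was the lowest pool at both ages. Adamts19 (0.33 ± 0.07, adjusted p = 0.0400), the membrane-spanning Col23a1 (0.65 ± 0.14, adjusted p = 0.0432) and Col9a1, a fibril-associated collagen best known from cartilage (0.49 ± 0.07, adjusted p = 0.0242), completed the 4 that were higher. The second probes of the last 3 genes gave 0.02, 0.16 and -0.09 and did not pass. Mmp2, Mmp14, Mmp7 and Adamts4 did not pass (0.21 ± 0.07, -0.06 ± 0.09, -0.15 ± 0.13 and -0.20 ± 0.07).

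The 3 pools of an age are not independent, because the reference values come from the same arrays as the mutant values. With the Cy3 reference of the arrays labelled +/+ in their place 1 probe of the set passed, and without the Cy/Cy pool or without the reference pool 0 did (34 without the Cy/+ pool). These are counts of the set alone. Whether more matrix probes than all probes were lower under these alternatives cannot be read from them. Scaling sets the direction of the 4 higher genes in part: without normalization between arrays the median of all probes shifted to -0.38, Mmp9 turned to -0.11 and Adamts19 to -0.12, both still above that median, while Col23a1 was at 0.36 and Col9a1 at 0.10.

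Of the collagen-processing genes 5 of 17 were lower and 0 higher at 7 days, among them P4ha1 (-0.88 ± 0.07, adjusted p = 0.0153), P4ha2 (-0.64 ± 0.07, adjusted p = 0.0189) and Lox (-0.57 ± 0.08, adjusted p = 0.0221). Of other matrix genes 3 of 18 were lower, with fibronectin (Fn1) at -0.50 ± 0.10 (adjusted p = 0.0371), and of basement membrane partners 1 of 11 (Frem2, -0.42 ± 0.08). Receptors had 1 of 15 higher (Itgb5) and 1 lower (Itgb4), and inhibitors 1 of 8 higher (Serpine2) and 1 lower (A2m). Macrophage markers moved with these genes, 5 of 8 being lower, with sums of 6692 in Cy/Cy, 6466 in Cy/+ and 6878 in the reference of the Cy/+ array at 7 days, against 8087, 11351 and 9423 at 3 days. Interstitial and mural markers had 2 of 6 lower (Pdgfra and Dcn) and 0 higher, and kidney epithelium markers 0 of 9 either way. Erythroid markers had 2 of 3 lower (median -0.49) and cartilage markers 2 of 8 lower (median 0.15), while 1 of 7 endothelial and 1 of 6 liver markers were higher. The medians of 4 adipose and 5 exocrine pancreas markers were -1.11 and -2.59 with 0 called. Whether cell numbers contribute to the fall was not tested.

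On the arrays labelled +/+, the families parted. The median over fibrillar collagens was 2.72 at 3 days and 2.97 at 7 days on the log2 scale and over other collagens 0.93 and 1.64, while basement membrane chains stood at -0.89 and -0.65 and proteases at 0.25 and 0.29, against 0.02 and 0.02 over all probes. At least 1.5-fold higher in Cy5 were 45 of 110 probes at 3 days (21.0% of all probes) and 54 at 7 days (17.6%), and at least 1.5-fold lower were 21 (10.7%) and 16 (9.33%).

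**Figure D5:**
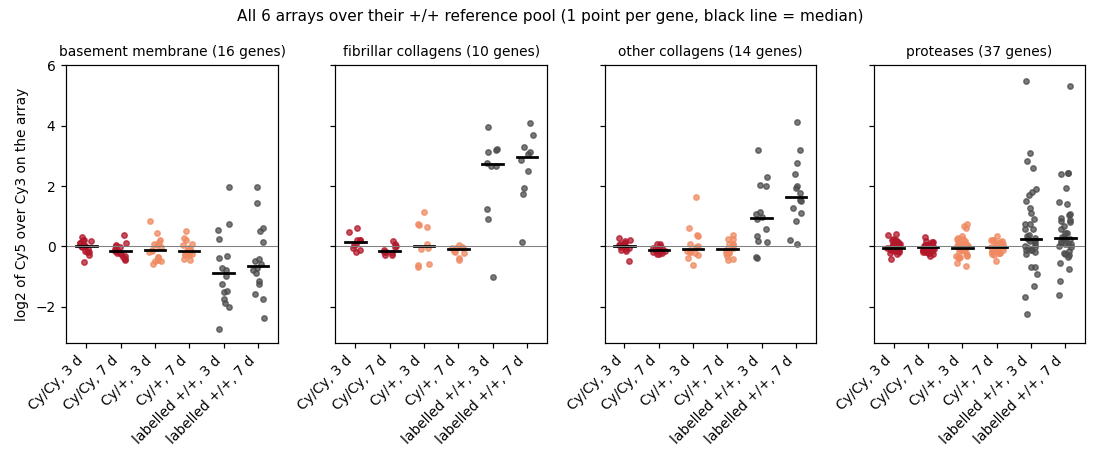
Log2 of Cy5 over Cy3 for the 77 genes, by family, on all 6 arrays; each point is a gene and the black line the median. The arrays labelled +/+ (grey, right) reach from -2.73 to 5.47, and the mutant arrays (left) lie within -0.69 to 1.65.

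Collagenase 3 (Mmp13), known from bone and cartilage, had the highest values, 5.47 and 5.31. It was not well above background on any Cy/Cy or Cy/+ array, and the arrays labelled +/+ were at least 56.5-fold brighter than Cy/Cy and at least 52.8-fold brighter than Cy/+ (mean log2 intensity 6.36 in Cy/Cy, 6.46 in Cy/+ and 12.18 on the arrays labelled +/+). Such bounds compare the bright mean with the dim probe's own signal or the lowest signal well above background, whichever is higher. Col10a1, the collagen of growth-plate cartilage, was at 3.18 and 4.11 and the arrays labelled +/+ were at least 19.2-fold brighter than Cy/Cy and at least 19.1-fold brighter than Cy/+. The other 4 of the 6 highest were Col5a3 (3.94 and 4.10), Col2a1 (3.12 and 3.70), Col1a1 (3.22 and 3.07) and Col1a2 (3.20 and 2.87). These are values of the brightest probe of each gene. Other Col1a1 probes went down to 1.61 and 1.79, the second Col1a2 probe gave 2.33 and 2.23, and the second Col2a1 probe 0.22 and 0.75. The second Col10a1 probe stood higher, at 3.81 and 4.93. In Cy3 at 3 days, Col1a1 had a log2 level of 13.14 on the array labelled +/+. It had 14.96 on the Cy/+ array and 15.26 on the Cy/Cy array. For Col1a2 the levels were 13.10, 15.20 and 15.33. The lowest were Lama1 (-2.73 and -2.38), Mmp11 (-2.23 and -1.60), Col4a5 (-1.89 and -1.74), Col4a4 (-2.01 and -1.59), Adamts1 (-1.68 and -1.16) and Lama5 (-1.47 and -1.25). The second Col4a5 probe gave -0.37 and -0.18.

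In the fit over all 6 arrays with age as a term, Cy/Cy differed from the arrays labelled +/+ in 72 of 110 probes, 19 higher (10.6% of all probes) and 53 lower (18.4%). Cy/+ differed from them in 71, 18 higher (11.0%) and 53 lower (18.6%). Both comparisons share the arrays labelled +/+. The filter let 13 of the 110 probes (2617 of all probes) through with fewer than 2 mutant arrays well above background. Of these, 9 are among the lower ones in either comparison (1522 of all probes for Cy/Cy and 1502 for Cy/+), so the lower counts are a description only. Higher in both mutants were Lama1 (2.48 ± 0.22 in Cy/Cy and 2.17 ± 0.22 in Cy/+), Col4a4 (2.14 ± 0.14 and 2.27 ± 0.14) and Lama5 (1.05 ± 0.16 and 1.06 ± 0.16). Lower in both were Col5a3 (-3.82 ± 0.37 and -3.53 ± 0.37), Col2a1 (-3.52 ± 0.24 and -3.82 ± 0.24) and Col1a1 (-3.05 ± 0.19 and -2.89 ± 0.19). For Col2a1 and Col1a1 these are the brightest probes, and their other probes had smaller ratios on the arrays labelled +/+. The adjusted p-values of these 6 genes ran from 0.000374 to 0.0068. Beside them on the arrays labelled +/+ stood bone markers with median ratios of 3.42 and 3.07 and cartilage markers with 1.69 and 2.58. Because these arrays go against their label, a direction drawn from them holds only as far as the label does, and the part of other tissues in it was not tested.

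On rn3 chromosome 8 the probes of Mmp13, Mmp12, Mmp3, Mmp10, Mmp8, Mmp27, Mmp20 and Mmp7 lie within 365.2 kb. None of these 8 neighbours passed in Cy/Cy, in Cy/+ or between the ages. However, Mmp13, Mmp10, Mmp8, Mmp27 and Mmp20 were not well above background in Cy5 on any Cy/Cy or Cy/+ array. Mmp12, Mmp3 and Mmp7 were not so on any Cy/Cy array. For such dim probes the lack of a call says little about a change. On the arrays labelled +/+ they differed among themselves, with Mmp13 at 5.47 and 5.31 while Mmp3 was at -0.24 and 0.31 and Mmp7 at 0.74 and 0.11. In all, 18 of the 77 genes lay within 200 kb of another, in 6 clusters.

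The probes not used number 8, and 5 genes have no other. Col17a1, Adamts6, Adamts16 and Mmp21 were not well above background on any array, and Adamts20 was so on 1 array. Col11a1 and Mmp19 each had 1 unused probe beside those used, well above background on 1 array.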

How the data were processed

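Pooled rat kidney RNA was measured on 6 2-colour arrays (Cy5 the pool named by the sample, Cy3 an age-matched +/+ pool). The deposited spot signals are intensity values of Agilent Feature Extraction 9.5.1.1, per the file headers, and the ratio column holds log10 values (Cy5 over Cy3 after the software's own correction), as deposited by the authors. Values of the series table were identical (difference at most 0). Probe positions are of build rn3. The series text names another array and software version, and the headers were followed.

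In R 4.3.3 with limma 3.58.1, signals were corrected by normexp (offset 50) against local background and normalised by loess within arrays, with control and outlier-flagged spots at weight 0. Spots of a probe were averaged. Probes whose spot was well above background, in Cy5 or Cy3, on 2 or more arrays were fitted (30934 of 41012) with lmFit and eBayes, and p-values adjusted by Benjamini-Hochberg over all of them at 0.05. Cy/Cy and Cy/+ ratios were fitted against 0 and each other (4 arrays, 2 residual degrees of freedom), which takes the reference as 1 control pool without its own spread. The ratios were also fitted against the arrays labelled +/+ (6 arrays), and for age. Ages were compared in channels separated after Aquantile normalisation, with the pool as a block. Fits were tested on simulated data.

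Some results are not reported here. Members and lists were chosen with earlier results of these data known. Named are genes past the threshold, the 6 highest and lowest means, the 10 highest and lowest called between ages, and fixed core chains. All 82 gene names are RefSeq symbols, and 30 probes also matched RefSeq by accession.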

Additional observations from a re-analysis of the deposited data

How the results depend on the processing

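The number of matrix probes called in Cy/+ against the reference (8) became 0 with the software's log ratio, 56 with median centring, 4 with scaling between arrays and 29 with age as a term, and ran from 0 to 22 when an array was left out. With no filter it was 11, and with loess fitted on the passing probes, an alternative chosen after seeing the data, 9. Under median centring Cy/Cy against the reference gave 42 in place of 0, and the mutant ratios between the ages gave 1 in place of 0, as did scaling between arrays. Leaving out an array gave 0 to 2 for Cy/Cy against Cy/+, 37 to 78 for Cy/Cy and 35 to 79 for Cy/+ against the arrays labelled +/+. For 7 against 3 days the count (22) became 1 with the Cy3 reference of the arrays labelled +/+ and 82 without Aquantile, and ran from 0 to 34 when a pool was left out. Directions turned for Col18a1 (0.36) and Adamts5 (0.0040) in Cy/+ under median centring, and for Mmp9 (-0.11) and Adamts19 (-0.12) between the ages without Aquantile. The cause of these changes was not tested, apart from fewer samples where an array or pool was left out. The counts in this paragraph are of the set alone, so they do not show whether the set or the whole array changed. Under median centring the median of all probes itself moved to 0.19 in Cy/+ and 0.17 in Cy/Cy. Without Aquantile it moved to -0.38 between the ages. Signal over background limits the dim proteases, and 8 of 118 probes were left out by the filter.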
